A study of Mus musculus with 6 samples.

Results

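Tet1, Tet2 and Tet3 are dioxygenases that oxidise 5-methylcytosine (5mC) in DNA to 5-hydroxymethylcytosine (5hmC) and further to 5-formylcytosine (5fC) and 5-carboxylcytosine (5caC). Thymine DNA glycosylase, encoded by Tdg, cuts out 5fC and 5caC, and the base excision repair machinery then puts an unmodified cytosine in their place. Mbd4 is a glycosylase with a methyl-CpG binding domain that removes thymine and uracil mispaired with guanine, and Tet1 and Tet2 are known as the main Tet enzymes of mouse embryonic stem cells (mESCs). These 5 genes were taken by name as the Tet enzymes and their base excision partners, out of 53390 genes with a transcript in the files, and all 5 were among the 18177 genes with enough counts to be tested.

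RNA levels were measured by poly(A)-selected, stranded RNA-seq from 500 ng of total RNA in TKO mESCs, a triple knockout line without functional Dnmt1, Dnmt3a and Dnmt3b (Dnmt1-/-, Dnmt3a-/-, Dnmt3b-/-), so that both conditions carry the 3 knockouts and neither holds a wild type. TKO-2i cells were grown in serum-free N2B27 medium with the MEK inhibitor PD0325901 at 1 µM, the Gsk3 inhibitor CHIR99021 at 3 µM and LIF at 1000 U/ml. TKO-serum cells were grown in medium with 15% fetal calf serum and LIF at 500 U/ml, so the media differed in serum, inhibitors and LIF dose together, and the parts these play cannot be told apart. There were 3 samples per condition, named as biological replicates, and the question was how the culture condition acts on expression where DNA methylation is lost. TKO cells derive from male J1 mESCs and stand for 1 line, whose state of passage per sample was not given. Libraries of the study were sequenced in 2 pools, and the pool of each library was not stated. TKO-2i replicates 1, 2 and 3 held 46228700, 44180642 and 43896549 estimated counts, and TKO-serum replicates 1, 2 and 3 held 38274042, 51932739 and 44827609. In all lists of values the order is TKO-2i replicates 1, 2 and 3 and then TKO-serum replicates 1, 2 and 3.

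The knocked-out genes still gave reads in every sample. Levels are given as TPM, which allow for transcript length, or as CPM, counts relative to the normalised library size that do not. Dnmt1, the maintenance methyltransferase, had 29.1, 34.6 and 29.3 TPM in TKO-2i and 25.7, 28.6 and 27.9 TPM in TKO-serum. Dnmt3a, a de novo methyltransferase, had 4.30, 5.19 and 4.54 against 21.3, 23.0 and 22.7 TPM. Dnmt3b, the other de novo enzyme, had 6.71, 9.53 and 8.49 against 18.8, 20.9 and 20.7 TPM. Dnmt3a and Dnmt3b were thus lower in all 3 TKO-2i samples, and Dnmt1 was slightly higher in them. The study, with microarrays and RT-qPCR, described Dnmt3l alone of these transcripts as downregulated in TKO cells, and the 3 knocked-out genes as inactivated. Where the deletions lie in each gene was not given in the sources used here, so reads outside them check nothing about the knockouts.

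Markers of pluripotent cells were high in every sample. Their 9 genes summed to 3150, 3150 and 2970 TPM in TKO-2i and to 3620, 3720 and 3660 TPM in TKO-serum, with Pou5f1 the most abundant, and 3 rose and 4 fell in TKO-2i. Markers of other cell types moved between the conditions in both directions, where of all tested genes 62.5% changed, 31.9% higher and 30.6% lower in TKO-2i. The 7 primitive endoderm markers summed to 4.76, 5.80 and 4.69 TPM against 14.6, 17.7 and 19.3 TPM, with Gata4 the most abundant in TKO-2i and Dab2 in TKO-serum, and 6 of them fell and 0 rose in TKO-2i. The 6 trophoblast markers summed to 42.1, 40.6 and 38.3 against 26.8, 27.7 and 25.6 TPM, with Tfap2c the most abundant, and 3 rose and 2 fell. The 5 neural markers summed to 90.3, 91.2 and 87.9 against 134, 137 and 134 TPM, with Tubb3 the most abundant, and of the 4 tested 1 rose and 3 fell. The 5 mesoderm markers summed to 12.3, 12.0 and 17.7 against 2.26, 2.80 and 2.57 TPM, with T the most abundant in TKO-2i and Mixl1 in TKO-serum, and of the 4 tested 1 rose and 1 fell. TKO cells were kept on gelatin without feeder cells, and the 7 fibroblast markers summed to 6.10, 6.77 and 5.94 against 6.45, 7.03 and 6.50 TPM, with Thy1 the most abundant. Of the 4 tested 1 rose, Pdgfrb, with 1.99, 1.99 and 1.44 against 0.655, 0.586 and 0.647 TPM, and 2 fell. Dcn and Col3a1 had 0 counts in TKO-2i replicates 1 and 3, Lum had 0 counts in TKO-serum replicates 2 and 3, and the endoderm regulator Foxa2 had 0 counts in TKO-2i replicate 1. No gene of these 6 lists was at 0 in all 6 libraries. These are whole cultures, in which fewer cells of a type and less RNA per cell cannot be told apart, and the part of these marker genes in the results was not tested.

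Of the 5 genes, 4 passed the test between TKO-2i and TKO-serum, where 62.5% of all tested genes did (edgeR quasi-likelihood test with Benjamini-Hochberg adjustment over 18177 genes, threshold 0.05). Tet2, Tet3 and Mbd4 were higher in TKO-2i, 3 of 5 where 31.9% of all tested genes were higher, and Tdg was lower, 1 of 5 where 30.6% were lower. Tet1 did not pass. The CPM of the conditions did not overlap for 4 of the 5 genes, as for 67.5% of all genes tested. The counts past the threshold and without overlap thus lie near the background of a comparison in which most genes moved. The part that was higher, 3 of 5, lay above its background of 31.9%, but 5 genes are few and the difference was not tested. Over the 5 genes the log2 fold changes had a median of 0.34, beside 0.01 over all tested genes, and their absolute values one of 0.40, beside 0.44.

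On the TPM scale the order of the levels was the same in all libraries of a condition. In each TKO-2i library Tet1 came first, followed by Tet2, Tdg, Mbd4 and Tet3. In each TKO-serum library Tdg stood above Tet2, and the rest of the order was as in TKO-2i. In TKO-2i the mean TPM of Tet2 (36.7 ± 11.4, SD, n = 3) and Tdg (26.9 ± 0.641, SD, n = 3) differed by less than the spread of Tet2. In TKO-serum Tdg (34.1 ± 1.12, SD, n = 3) and Tet2 (27.8 ± 2.33, SD, n = 3) differed by more than either spread, as did the other neighbours in both orders. By mean TPM in TKO-2i and TKO-serum, Tet1 stood at percentiles 89.7 and 93.3 of the tested genes. Tet3, at the low end, stood at percentiles 40 and 36.2, and Mbd4 at 64 and 55.5.

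**Figure D1:**
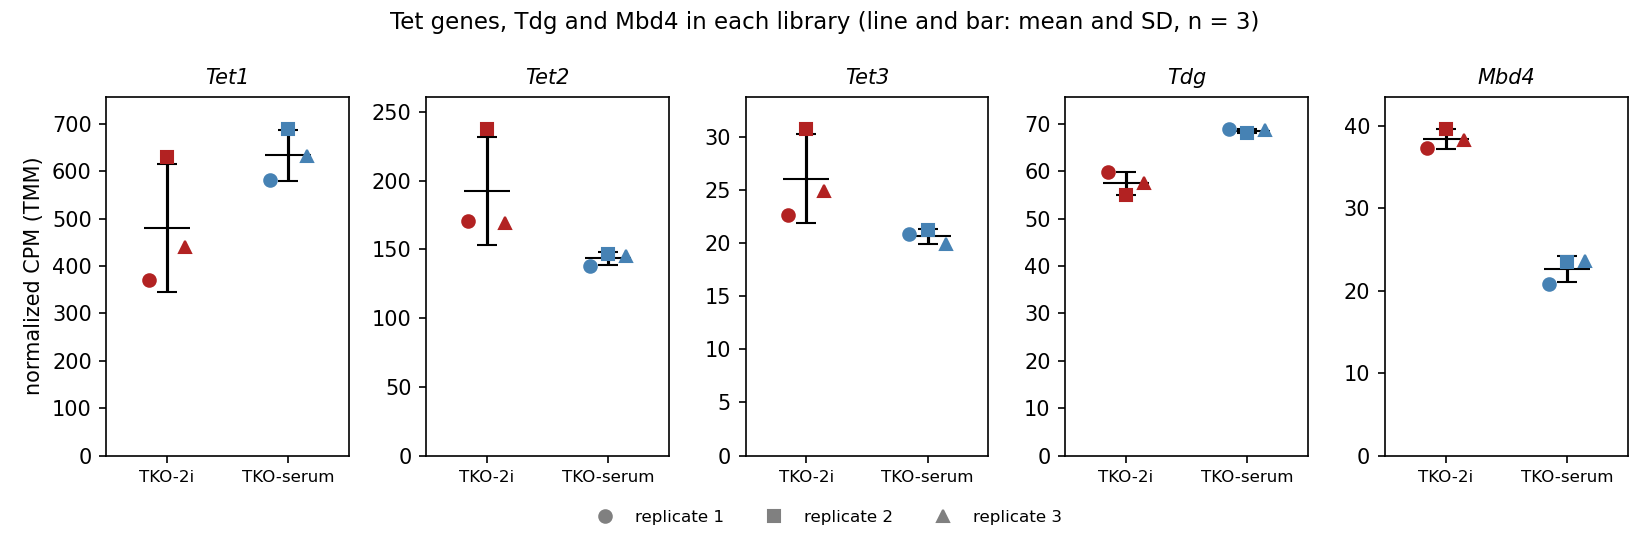
Normalised CPM (vertical axes, each from 0) of Tet1, Tet2, Tet3, Tdg and Mbd4 in the 3 TKO-2i and 3 TKO-serum libraries; each point is a library, the horizontal line the mean and the bar the SD (n = 3). Tet1, Tet2 and Tet3 have their highest TKO-2i value in replicate 2 (630.3, 237 and 30.7 CPM), while the TKO-2i points of Mbd4 lie together between 37.3 and 39.6 CPM, above its TKO-serum points.

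Tet1, the most abundant Tet gene here, lies at chr10:62804570-62908996 on the minus strand of GRCm38 (ENSMUSG00000047146). Its estimated counts were 16590, 27720 and 18787 in TKO-2i and 22430, 36679 and 29090 in TKO-serum. In CPM these were 370.2, 630.3 and 440.6 in TKO-2i (480.3 ± 135, SD, n = 3) and 582, 689 and 633 in TKO-serum (635 ± 53.9, SD, n = 3). TKO-2i replicates 1 and 3 lay below all TKO-serum samples, and replicate 2 lay among them, so the conditions overlapped. The TPM values were 62.9, 107 and 68.9 against 109, 129 and 113, where replicate 2 came just under the lowest TKO-serum sample. The log2 fold change was -0.40 (standard error 0.17) and did not pass the threshold (edgeR quasi-likelihood, Benjamini-Hochberg adjusted p = 0.0713). Without TKO-2i replicate 2 it was -0.64 with an adjusted p of 6.15e-05 in the same edgeR test, and over 16 alternatives it ranged from -0.64 to -0.26, with adjusted p from 6.15e-05 to 0.188, and passed in 7.

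Tet2, a Tet enzyme without a CXXC domain of its own, lies at chr3:133463679-133545139 on the minus strand (ENSMUSG00000040943). It had 170.4, 237 and 169 CPM in TKO-2i (192 ± 39.1, SD, n = 3) and 138, 147 and 145 CPM in TKO-serum (143 ± 4.75, SD, n = 3), from 5323 to 10444 counts per library. All 3 TKO-2i samples were above all TKO-serum samples, with replicate 2 far above the other TKO-2i samples. In TPM it had 29.6, 49.9 and 30.7 against 25.1, 29.4 and 28.8, and the conditions again did not overlap. Tet2 rose in TKO-2i by a log2 fold change of 0.42 (standard error 0.12, edgeR quasi-likelihood, adjusted p = 0.0167). Without TKO-2i replicate 2 the log2 fold change was 0.25 (edgeR, adjusted p = 0.00144), and without TKO-serum replicate 1 it was 0.40 and no longer past the threshold (edgeR, adjusted p = 0.0527). With limma on log2(TPM + 1) it was 0.35 (adjusted p = 0.171), and on log2(TPM + 0.1) 0.36 (limma, adjusted p = 0.205).

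Tet3, known for its role in the oocyte and zygote, lies at chr6:83362373-83459084 on the minus strand (ENSMUSG00000034832). It had 22.6, 30.7 and 24.9 CPM in TKO-2i (26.1 ± 4.18, SD, n = 3) and 20.8, 21.3 and 19.9 CPM in TKO-serum (20.6 ± 0.712, SD, n = 3), from 803 to 1351 counts per library. The TKO-2i samples lay above all TKO-serum samples, replicate 1 by the least. In TPM the conditions overlapped, with 2.58, 4.21 and 2.85 against 2.77, 3.01 and 2.67. TKO-2i replicate 2 lay above all serum samples, replicate 1 below all of them and replicate 3 among them. On the count scale Tet3 rose by a log2 fold change of 0.34 (standard error 0.11, edgeR quasi-likelihood, adjusted p = 0.0232). It was 0.21 without TKO-2i replicate 2 (edgeR, adjusted p = 0.0147), and it missed the threshold without TKO-serum replicate 1 (0.34, edgeR, adjusted p = 0.053) and without TKO-serum replicate 3 (0.31, edgeR, adjusted p = 0.0817). It also missed it with counts from length-scaled TPM (0.27, edgeR, adjusted p = 0.0957), with limma on log2(TPM + 1) (0.12, adjusted p = 0.493) and on log2(TPM + 0.1) (0.15, limma, adjusted p = 0.525).

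TKO-2i replicate 2 held more of the long transcripts in general. Of the protein-coding genes that averaged 5 CPM or more, the 195 with transcripts over 8000 bases deviated from their TKO-2i mean by a median log2 of -0.17, 0.24 and -0.07 in replicates 1, 2 and 3. The 804 genes under 1000 bases went the other way, with 0.12, -0.19 and 0.06. In TKO-serum the same medians ran from -0.05 to 0.06 for the long genes and from -0.08 to 0.10 for the short ones. The mean transcript length, weighted by TPM, was 8665 bases for Tet1, 7254 for Tet2 and 9953 for Tet3, but 3036 for Tdg and 3390 for Mbd4. In TKO-2i replicate 2, Tet1 deviated by 0.43, at percentile 94.4 of its length class, and Tet2 by 0.32, at percentile 97 of the 2063 genes of 4000 to 8000 bases. Tet3 deviated by 0.24, at percentile 52.8 of the genes over 8000 bases, and Tdg and Mbd4 by -0.06 and 0.04. With offsets for each library's trend on transcript length, chosen after seeing the data, the log2 fold changes between conditions were -0.37 for Tet1, 0.45 for Tet2 and 0.39 for Tet3 (edgeR, adjusted p = 0.00444, 0.000222 and 0.000127). In that fit the median over all tested genes shifted by -0.0954.

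**Figure D2:**
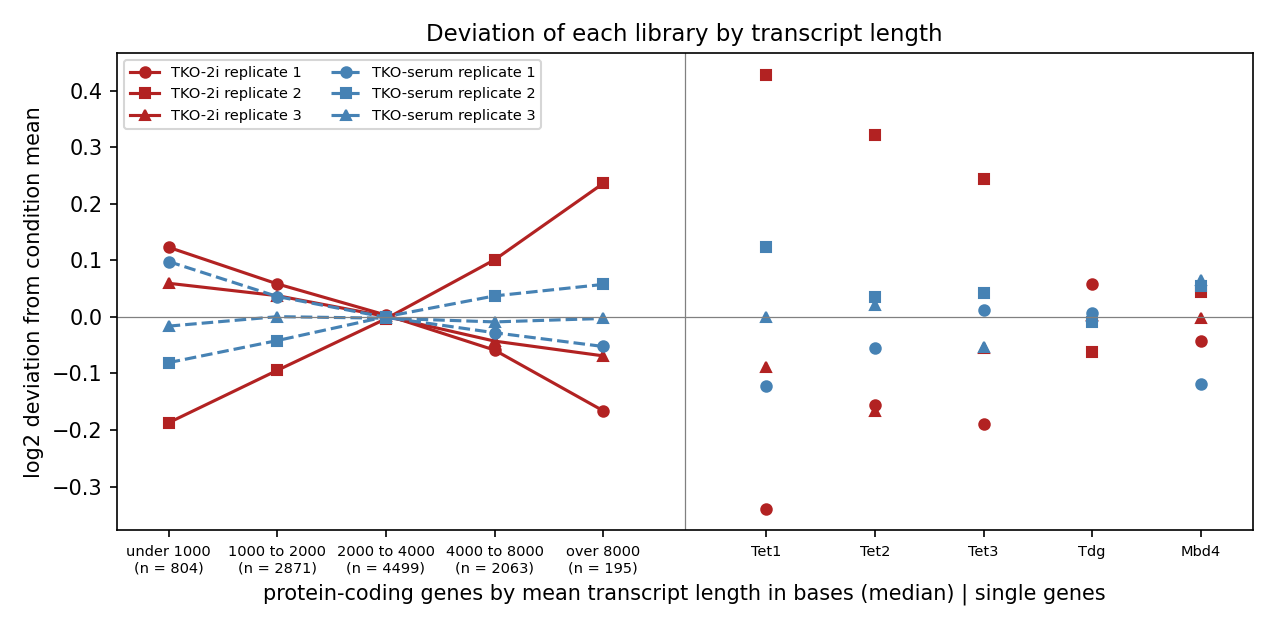
Log2 deviation of each library from the mean of its condition (vertical axis), as the median of protein-coding genes in 5 classes of transcript length (left, lines joining the classes of a library) and for Tet1, Tet2, Tet3, Tdg and Mbd4 singly (right, points). TKO-2i replicate 2 runs from -0.19 in the shortest class to 0.24 in the longest, and the 3 Tet genes lie at 0.24 to 0.43 in that library.

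In TKO-2i the replicates of the Tet genes varied more than those of Tdg and Mbd4. The coefficient of variation of CPM in TKO-2i was 28% for Tet1, 20.3% for Tet2 and 16% for Tet3, where tested genes within 2-fold of their CPM had medians of 6.09%, 5.85% and 6.72%. Tdg and Mbd4, at 4.21% and 3.03%, lay under the medians for genes of their level, 6.27% and 6.51%. TKO-serum did not show this division: Tet1 had 8.5% and Mbd4 7.14%, above the medians of 3.89% and 4.65% for their level, while Tet2 had 3.31%, Tet3 3.45% and Tdg 0.577%, under the medians of 3.47%, 4.76% and 3.82%.

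The proportions among the Tet genes, taken from TPM, varied less between the TKO-2i replicates than the TPM levels did. Tet1 made up 66.1, 66.5 and 67.2% of the summed TPM of Tet1, Tet2 and Tet3 in TKO-2i (66.6 ± 0.562%, SD, n = 3) and 79.6, 79.9 and 78.2% in TKO-serum (79.2 ± 0.884%, SD, n = 3). Tet2 made up 31.2, 30.9 and 30% against 18.4, 18.3 and 19.9%. Tet3 made up 2.71, 2.61 and 2.79% against 2.03, 1.87 and 1.85%. For each gene the 3 TKO-2i samples lay apart from the 3 TKO-serum samples, and the share in TKO-2i replicate 2 was between the other TKO-2i shares for Tet1 and Tet2 and the lowest for Tet3. From counts in place of TPM the spread was larger in TKO-2i, with 65.7, 70.2 and 69.4% for Tet1 (68.4 ± 2.37%, SD, n = 3), and replicate 2 was the highest. The mean share of Tet1 differed by -12.6 percentage points, that of Tet2 by 11.8 and that of Tet3 by 0.786. A two-sided exact permutation test gave p = 0.1 for each share, also after adjustment over the 3 shares, which is the smallest p that 3 against 3 samples allow. Shares of 1 sum are tied to each other, so the 3 differences are not separate results. The summed TPM of the 3 Tet genes was 95.1, 161 and 102 in TKO-2i and 137, 161 and 145 in TKO-serum, and here the conditions overlapped through TKO-2i replicate 2.

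**Figure D3:**
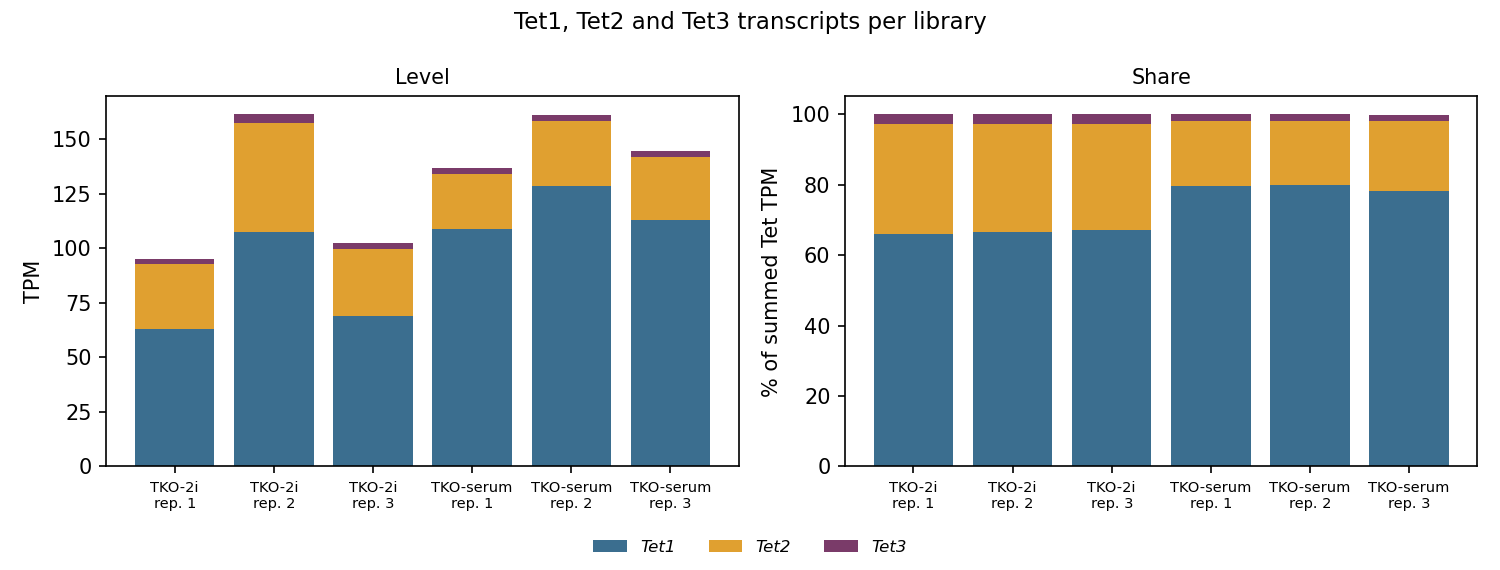
TPM (left) and percent of the summed Tet TPM (right) of Tet1, Tet2 and Tet3 in each library, as stacked bars. The summed TPM of TKO-2i replicate 2 (161) stands above the other TKO-2i libraries (95.1 and 102), while the Tet1 share lies at 66.1 to 67.2% in TKO-2i and 78.2 to 79.9% in TKO-serum.

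The annotation gives 41 transcripts of the 5 genes, of which 20 had enough counts to be tested singly. Of these, 4 passed the test between conditions, where 23.5% of 48564 tested transcripts did: Tet1-205 and Tdg-208 were lower in TKO-2i, and Tet3-202 and Mbd4-201 were higher. A further test asked whether a transcript changed otherwise than its gene as a whole, and 1 of the 20, Tet1-201, passed, where 1.44% of 40839 tested transcripts did. How reads were split between transcripts of a gene is an estimate of the authors' quantification, whose error is not known here.

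Tet1 has a pair of long coding transcripts, Tet1-206 and Tet1-201. Tet1-206 (14369 bases in 13 exons, 6117 of them coding) had 24.7, 48.4 and 32.7 TPM in TKO-2i and 49.0, 61.1 and 56.0 TPM in TKO-serum. Tet1-201 (13986 bases in 11 exons, 6021 of them coding) had 11.8, 18.3 and 10 against 9.81, 13.4 and 11.2 TPM. All TKO-2i samples of Tet1-206 were below all TKO-serum samples, whereas the conditions overlapped for Tet1-201. As a share of Tet1 TPM, Tet1-201 made up 18.7, 17.1 and 14.5% in TKO-2i and 9.01, 10.4 and 9.87% in TKO-serum, with no overlap. Its log2 change relative to all tested Tet1 transcripts together, Tet1-201 included, was 0.48 (edgeR diffSpliceDGE, adjusted p = 0.0061). Over 7 alternatives chosen after seeing the data this change stayed between 0.42 and 0.55 (edgeR diffSpliceDGE, adjusted p from 0.000557 to 0.0462). As a level, Tet1-206 had a log2 fold change of -0.64 (standard error 0.19, edgeR quasi-likelihood, adjusted p = 0.0579) and Tet1-201 one of 0.24 (standard error 0.19, edgeR, adjusted p = 0.442). Without TKO-2i replicate 2, Tet1-206 was at -0.87 and past the threshold (edgeR, adjusted p = 0.0129), and Tet1-201 was at 0.0005 (edgeR, adjusted p = 0.998).

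These 2 transcripts share 13979 bases, so the split of Tet1 between them rests on few bases. Tet1-206 alone holds exon 9 of its 13 exons, at chr10:62818939-62819034 on the minus strand of GRCm38, 96 bases that are all coding. It also alone holds 175 bases of its first exon and 119 bases of its second, both noncoding, while Tet1-201 starts within that second exon at position 62880014 of chromosome 10. In the translated coding sequence of both, the cysteine spacing of the CXXC domain, which binds CpG DNA, was found. The exon is printed because it is the coding stretch in which the 2 transcripts differ.
Tet1-206 exon 9: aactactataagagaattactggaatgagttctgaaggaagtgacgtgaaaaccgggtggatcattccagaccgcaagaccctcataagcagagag

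Shorter Tet1 transcripts were measured as well. Tet1-205, an annotated fragment of 1197 bases over the last 3 exons that is incomplete at both ends, had 4.74, 5.52 and 3.99 TPM in TKO-2i and 11, 12.1 and 11.5 TPM in TKO-serum. All TKO-2i values were below all TKO-serum values, and TKO-2i replicate 2 did not stand apart. It fell in TKO-2i, with a log2 fold change of -1.24 (standard error 0.13, edgeR quasi-likelihood, adjusted p = 0.00139), but did not pass the test against Tet1 as a whole (edgeR diffSpliceDGE, adjusted p = 0.591). It differs from Tet1-206 by 54 coding bases at chr10:62813524-62813577, which extend an exon. They are printed as the sequence that sets this transcript apart from the long ones.
Tet1-205 added bases: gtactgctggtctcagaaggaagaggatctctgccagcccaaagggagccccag

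Tet1-207, Tet1-208, Tet1-209 and Tet1-210 are short 5′ transcripts that join upstream exons of their own to the same 261 bases of the second exon of Tet1-206. All are annotated as incomplete at the 3′ end. Tet1-209, which starts at position 62892986 of chromosome 10, was the most abundant of them with 14.7, 23.6 and 13.5 TPM against 22.6, 25.5 and 22.9 TPM, and the conditions overlapped through TKO-2i replicate 2. Its log2 fold change was -0.43 (standard error 0.18, edgeR, adjusted p = 0.143), and without TKO-2i replicate 2 it was -0.63 and past the threshold (edgeR, adjusted p = 0.0265). Tet1-207 starts at 62887324 and had 3.29, 3.67 and 1.84 against 7.11, 5.54 and 4.81 TPM, without overlap but also without passing the test (log2 fold change -0.92, edgeR, adjusted p = 0.108). Tet1-208, Tet1-210 and the 3′ fragment Tet1-203 lay between 0.75 and 5.67 TPM in single libraries and overlapped between the conditions.

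**Figure D4:**
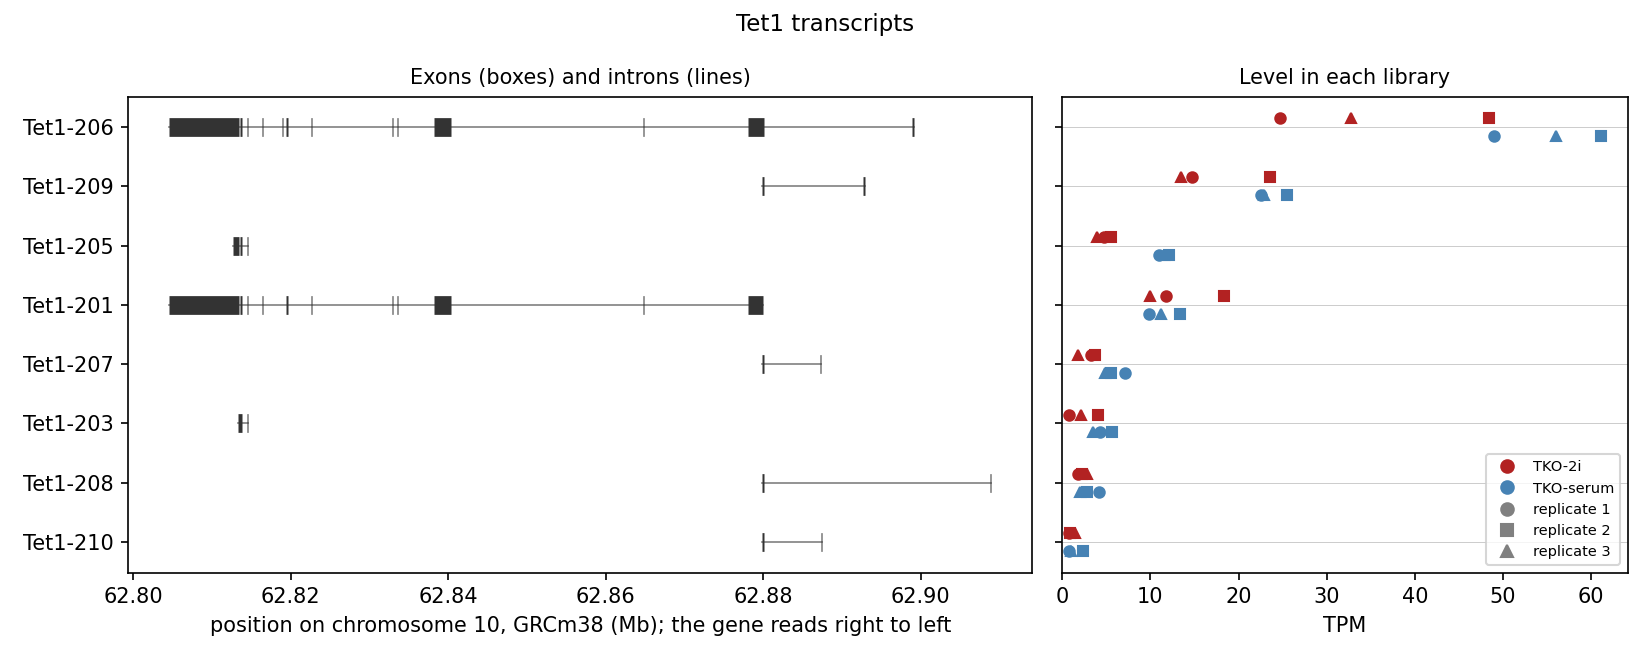
Exons of 8 Tet1 transcripts along chromosome 10 (left, position in Mb, GRCm38; the gene reads from right to left) and their TPM in each library (right, a point per library). Tet1-206 lies at 24.7 to 48.4 TPM in TKO-2i and 49.0 to 61.1 TPM in TKO-serum, while Tet1-201 overlaps at 10 to 18.3 and 9.81 to 13.4 TPM.

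Most Tet2 RNA was assigned to the coding transcript Tet2-204 (9021 bases in 12 exons), with 18.8, 30.3 and 18.5 TPM in TKO-2i and 17.5, 19.1 and 18.6 TPM in TKO-serum. The conditions overlapped, and of the TKO-2i samples only replicate 2 was clearly above serum (log2 fold change 0.31, standard error 0.13, edgeR, adjusted p = 0.154). Without that replicate it was 0.12 (edgeR, adjusted p = 0.103). The retained-intron transcript Tet2-208 had 2.98, 7.41 and 3.86 against 2.13, 3.24 and 3.16 TPM, which overlapped as well. None of the 6 tested Tet2 transcripts passed either test, though the retained-intron transcript Tet2-209 (log2 fold change 0.72, edgeR, adjusted p = 0.096) passed without TKO-2i replicate 1 (0.95, edgeR, adjusted p = 0.0188), and no Tet2 transcript held the CXXC spacing.

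Tet3 has a long transcript with and one without the CXXC domain. Tet3-202 (10904 bases), in which no CXXC spacing was found, had 2.30, 3.41 and 2.50 TPM in TKO-2i and 1.99, 2.35 and 2.12 TPM in TKO-serum. Tet3-203 (5944 bases), which holds the spacing, had 0.281, 0.777 and 0.345 against 0.738, 0.645 and 0.549 TPM. Both overlapped between the conditions. Tet3-202 rose in TKO-2i by a log2 fold change of 0.39 (standard error 0.0916, edgeR quasi-likelihood, adjusted p = 0.0255), a call that was lost in 5 of 9 alternatives, among them the fits without TKO-2i replicate 3 and without TKO-serum replicate 1, 2 or 3 (edgeR, adjusted p from 0.032 to 0.123 over the samples left out). Tet3-203 made up 10.9, 18.5 and 12.1% of Tet3 TPM in TKO-2i and 26.7, 21.4 and 20.6% in TKO-serum, without overlap. Its change relative to Tet3 as a whole, Tet3-203 included, did not pass (log2 change -0.51, edgeR diffSpliceDGE, adjusted p = 1). As a level, Tet3-203 had a log2 fold change of -0.46 (edgeR, adjusted p = 0.388), opposite in sign to Tet3-202. With 77.2 to 172 counts per library, Tet3-203 had the larger standard error of the pair (0.33 against 0.0916).

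The study silenced Tet1 and Tet2 with small interfering RNAs in experiments not analysed here, and their sites show which of these transcripts such a reagent or primer reads. The sense strands are printed with the RNA bases given for them, and 19 bases of each, without the 2-base overhang, were matched to the annotated transcripts.
siTET1 sense strand: caacuugcauccacgauuauu
siTET2 sense strand: gaaagcagcucgaaagcguuu

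The siTET1 site lies at chr10:62839166-62839184 on the minus strand of GRCm38, in coding exon 4 of the 13 exons of Tet1-206, and is present in Tet1-201, Tet1-202 and Tet1-206. These 3 transcripts made up 58.3, 62.4 and 62.3% of Tet1 TPM in TKO-2i and 54.1, 58.0 and 59.6% in TKO-serum. The rest of the Tet1 TPM lay on short 5′ and 3′ transcripts that lack the site, and the shares of the conditions overlapped. Scaling for length gives such short fragments a large part of TPM from few reads. Of 16590 Tet1 counts in TKO-2i replicate 1, Tet1-206 held 11002, Tet1-201 5057.6 and Tet1-209 239.8. Of 22430 in TKO-serum replicate 1 they held 18086, 3498.7 and 296.1. By counts, most Tet1 reads in these libraries thus lay on transcripts with the site. The siTET2 site lies at chr3:133469373-133469391 on the minus strand, in coding exon 10 of the 11 exons of Tet2-201, and is present in 4 transcripts with 78.7, 72.2 and 76.6% of Tet2 TPM in TKO-2i and 79.8, 78.8 and 76.3% in TKO-serum. The study's forward primer for Tet1 RT-qPCR matched exon 11 of Tet1-206 at chr10:62814531-62814554 and is present in Tet1-201 and Tet1-206. Its reverse primer matched exon 12 at chr10:62813771-62813794 and is present in 5 transcripts, Tet1-205 among them. Both Tet2 primers matched the same 4 Tet2 transcripts as siTET2, at chr3:133471380-133471402 and chr3:133469602-133469623. No site was found in a transcript of another gene.
Tet1 forward primer: ctggagactgtcgacttggaaatg
Tet1 reverse primer: ttcatcctcgggacaatttgtgtc
Tet2 forward primer: tgtttggacttctctgctcattc
Tet2 reverse primer: ccgacttctcgattgtcttctc

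Tdg, the glycosylase that acts after Tet, lies at chr10:82629828-82650799 on the plus strand (ENSMUSG00000034674). It had 59.9, 55.1 and 57.6 CPM in TKO-2i (57.6 ± 2.42, SD, n = 3) and 68.9, 68.2 and 68.7 CPM in TKO-serum (68.6 ± 0.396, SD, n = 3), from 2423 to 3627 counts per library. All TKO-2i samples lay below all TKO-serum samples. The TPM values, 27.0, 27.5 and 26.2 against 32.8, 34.8 and 34.8, did not overlap either. Tdg fell in TKO-2i by a log2 fold change of -0.25 (standard error 0.0495, edgeR quasi-likelihood, adjusted p = 0.00208). Of its transcripts, Tdg-201 had 17.7, 17.5 and 16.6 against 18.2, 22.5 and 21.7 TPM and did not pass (log2 fold change -0.22, edgeR, adjusted p = 0.137). Tdg-208 had 8.63, 8.64 and 8.05 against 12.9, 11 and 11.3 TPM and fell (log2 fold change -0.43, standard error 0.12, edgeR, adjusted p = 0.0398). This call was lost when TKO-2i replicate 1, 2 or 3 or TKO-serum replicate 1 or 3 was left out (edgeR, adjusted p from 0.0539 to 0.131). It was kept without TKO-serum replicate 2 (edgeR, adjusted p = 0.0474).

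The value of Tdg is uncertain in 1 respect, since processed pseudogenes nearly identical to it also took counts. Gm9855, at chr10:42054113-42055306 on the minus strand, matched Tdg-201 at 99.2% of 1194 bases, and 83.4% of its runs of 31 bases also occur in Tdg, while 33.2% of those of Tdg-201 occur in Gm9855. It had 43.0, 44.7 and 37.4 TPM in TKO-2i and 48.8, 56.1 and 52.3 TPM in TKO-serum, more than Tdg itself in every library. Tdg-ps, at chr15:82516311-82519278 on the plus strand, matched Tdg-208 at 98.7% of 2968 bases, with 58.6% of the runs of Tdg-208 in it, and had from 587 to 927 counts per library. Both fell in TKO-2i beside Tdg, Gm9855 by a log2 fold change of -0.24 (standard error 0.0595, edgeR, adjusted p = 0.00744) and Tdg-ps by one of -0.28 (standard error 0.0599, edgeR, adjusted p = 0.00324). Gm5597, another pseudogene with 99.3% identity, had 0 counts in all libraries, and AC122846.1, with a copy of 203 bases at 99.0% identity, had no transcript in the files. Reads from the stretches that are identical may come from Tdg or from the pseudogenes, and how many of the counts these make up is not in the files.

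Tdg held 50.8, 49.9 and 52.4% of the counts of Tdg, Gm9855 and Tdg-ps together in TKO-2i and 51.9, 50.1 and 51.3% in TKO-serum, so the division between them was alike in all 6 libraries. Their sum had 118, 110 and 110 CPM against 133, 136 and 134 CPM, without overlap, and a log2 fold change of -0.25 (standard error 0.0522, edgeR quasi-likelihood, adjusted p = 0.00289). The sum was taken after seeing the data. The first 60 coding bases of Tdg-201 are printed with the same stretch of both pseudogenes to show how little separates them. A capital letter marks a base that differs from Tdg-201. Over the 1191 coding bases, Gm9855 had 9 mismatches and Tdg-ps 14.
Tdg-201: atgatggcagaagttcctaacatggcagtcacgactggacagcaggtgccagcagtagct
Gm9855: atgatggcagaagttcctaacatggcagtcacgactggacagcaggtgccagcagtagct
Tdg-ps: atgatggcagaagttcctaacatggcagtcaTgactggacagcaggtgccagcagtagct

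Mbd4 had the largest change of the 5 genes. It lies at chr6:115840697-115853371 on the minus strand (ENSMUSG00000030322) and had 37.3, 39.6 and 38.3 CPM in TKO-2i (38.4 ± 1.16, SD, n = 3) and 20.8, 23.5 and 23.7 CPM in TKO-serum (22.6 ± 1.62, SD, n = 3), from 801 to 1742 counts per library. The TKO-2i samples lay close together and well above every TKO-serum sample. In TPM it had 15.7, 18.2 and 16.0 against 9.53, 11 and 10.9, also without overlap. Mbd4 rose in TKO-2i by a log2 fold change of 0.76 (standard error 0.0647, edgeR quasi-likelihood, adjusted p = 1.59e-05), 1.70-fold. The full-length transcript Mbd4-201 carried most of it, with 13.1, 14.5 and 12.8 against 6.99, 8.65 and 8.48 TPM (log2 fold change 0.78, standard error 0.0841, edgeR, adjusted p = 0.00157). Mbd4-202 had 1.84, 2.88 and 2.16 against 1.34, 1.48 and 1.71 TPM (log2 fold change 0.61, edgeR, adjusted p = 0.0634), and Mbd4-204, a nonsense-mediated decay transcript, stayed between 0.695 and 0.996 TPM in all libraries.

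Mbd4 shares 1829 bases with an antisense gene, Gm44206, at chr6:115824499-115842525. Gm44206 had 337, 522 and 405 counts in TKO-2i and 770, 1296 and 997 in TKO-serum, lower in every TKO-2i sample, with a log2 fold change of -1.19 (standard error 0.15, edgeR, adjusted p = 0.000178). Its direction was opposite to that of Mbd4. The kit keeps strand, but whether counting used it was not given, so the counts of both genes in the shared bases are uncertain. Glt8d2, which overlaps the end of Tdg by 367 bases on the other strand, had only 5 to 17 counts per library.

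Mbd4 and Tet3 are both on chromosome 6, whose 866 tested genes had a median log2 fold change of 0.41, with 53.6% of them higher and past the threshold. The median over the 40 tested genes nearest to Mbd4 was 0.29, and over those nearest to Tet3 0.67. Thus Mbd4 rose by more than its neighbours' median, and the log2 fold change of Tet3, 0.34, was under that of its own. For Tet2 the 40 neighbours on chromosome 3 had a median of -0.28, opposite in sign to Tet2. Neighbours of Tet1 and Tdg on chromosome 10 had medians of 0.09 and -0.03. The part of the chromosome in these results was not tested.

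Of the 9 other DNA glycosylases tested, 6 rose and 0 fell (66.7% past the threshold, beside 62.5%, 31.9% higher and 30.6% lower, over all tested genes), and the median of their log2 fold changes was 0.27 beside 0.01 over all tested genes. Ogg1, which removes oxidised guanine and lies on chromosome 6, had 18.5, 18.9 and 18.0 TPM in TKO-2i and 8.08, 8.60 and 9 TPM in TKO-serum, without overlap (log2 fold change 1.26, standard error 0.0864, edgeR, adjusted p = 4.57e-06). Smug1, a uracil glycosylase that also removes oxidised pyrimidines, had 13.1, 13.1 and 12.9 against 8.20, 7.47 and 8.5 TPM (log2 fold change 0.84, standard error 0.055, edgeR, adjusted p = 3.5e-06). Nthl1, which acts on oxidised pyrimidines, rose by 0.57 (standard error 0.11, edgeR, adjusted p = 0.00165). Ung, the main uracil glycosylase, was the most abundant per length, with 82.0, 80.1 and 79.5 against 72.5, 75.8 and 77.4 TPM, and rose by 0.26 (standard error 0.0652, edgeR, adjusted p = 0.00738). The Neil glycosylases, which can follow Tdg in the repair of 5fC and 5caC, did not pass, with log2 fold changes of 0.11 for Neil1, 0.26 for Neil2 and -0.13 for Neil3 (edgeR, adjusted p = 0.353, 0.149 and 0.246).

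Of 17 genes that act in base excision after the glycosylase, 10 rose and 1 fell (64.7% past the threshold, beside 62.5% over all tested genes, with 31.9% higher and 30.6% lower), and their median log2 fold change was 0.16. The gene that fell was Apex1, the nuclease that cuts at the abasic site, with 171, 169 and 172 TPM in TKO-2i and 229, 223 and 218 TPM in TKO-serum (log2 fold change -0.28, standard error 0.0811, edgeR, adjusted p = 0.0162). Among those that rose were the polymerase delta subunit Pold3 (0.54, standard error 0.0528, edgeR, adjusted p = 3.61e-05) and the scaffold Xrcc1 (0.45, standard error 0.0525, edgeR, adjusted p = 9.81e-05). Xrcc1 had 56.3, 70.1 and 57.4 against 48.0, 51.1 and 51.7 TPM, without overlap. Parp1, the sensor of strand breaks, rose by 0.19 (standard error 0.0477, edgeR, adjusted p = 0.00709). Pcna, the sliding clamp and the most abundant of the list per length at 325 to 335 TPM in TKO-2i and 307 to 315 TPM in TKO-serum, rose by 0.18 (edgeR, adjusted p = 0.0494), with overlapping CPM.

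Of 17 partners and regulators of Tet, 4 rose and 11 fell in TKO-2i (88.2% past the threshold, where 62.5% of all tested genes were, 31.9% higher and 30.6% lower), with a median log2 fold change of -0.30. Ogt, which binds Tet proteins and adds O-linked N-acetylglucosamine, had 57.1, 95.1 and 65.9 TPM in TKO-2i and 50.8, 59.6 and 56.3 TPM in TKO-serum. Its highest value was again in TKO-2i replicate 2, the conditions overlapped in CPM, and it did not pass (log2 fold change 0.26, standard error 0.13, edgeR, adjusted p = 0.121). Prdm14, a regulator of naive pluripotency, rose from 10.7, 12.8 and 12.8 TPM in TKO-serum to 26.9, 30.7 and 25.3 TPM in TKO-2i (log2 fold change 1.28, standard error 0.0633, edgeR, adjusted p = 7.6e-07). Lin28a, an RNA-binding protein reported to recruit Tet1, fell with 38.9, 46.6 and 47.3 against 141, 162 and 148 TPM (log2 fold change -1.66, standard error 0.0784, edgeR, adjusted p = 5.88e-07). Gadd45g, of a family linked to demethylation, had 0.563, 0.799 and 0.938 against 7.89, 7.24 and 6.90 TPM (log2 fold change -3.12, standard error 0.19, edgeR, adjusted p = 2.15e-06). Of the same family, Gadd45b had 18.0, 18.4 and 18.7 against 10.7, 11 and 10.4 TPM and rose (0.82, standard error 0.078, edgeR, adjusted p = 3.04e-05), and Gadd45a fell (-0.37, standard error 0.0824, edgeR, adjusted p = 0.00414). Ddb1, an adaptor of the CRL4 ubiquitin ligase and the most abundant of the list per length, fell by a log2 fold change of -0.30 (standard error 0.0393, edgeR, adjusted p = 0.000192).

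Tet enzymes need 2-oxoglutarate and are stimulated by ascorbate, while succinate and fumarate inhibit them. Of 15 genes in the supply of these compounds, 8 rose and 2 fell (66.7% past the threshold, against 62.5% of all tested genes, 31.9% higher and 30.6% lower), with a median log2 fold change of 0.31. Slc23a1, an ascorbate transporter, had 0.217, 0.265 and 0.159 TPM in TKO-2i and 2.89, 3.47 and 3.42 TPM in TKO-serum and fell (log2 fold change -3.82, standard error 0.15, edgeR, adjusted p = 2.15e-07). Slc23a2, the other ascorbate transporter listed and the more abundant, had 21.6, 28.2 and 22.7 against 16.4, 18.5 and 17.2 TPM and rose (0.56, standard error 0.0665, edgeR, adjusted p = 0.000113). Sdhb, a subunit of succinate dehydrogenase, had 138, 128 and 135 against 92.0, 87.4 and 87.1 TPM and rose (0.71, standard error 0.0962, edgeR, adjusted p = 0.000259). Idh1, which makes 2-oxoglutarate in the cytosol, had 141, 139 and 133 against 100.5, 101 and 98.0 TPM and rose (0.58, standard error 0.0614, edgeR, adjusted p = 6.03e-05). Sdhc, another subunit of succinate dehydrogenase and the most abundant of the list per length, did not pass (-0.01, edgeR, adjusted p = 0.886).

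Of 8 genes listed around the writing and maintenance of DNA methylation, Trdmt1 and Dppa3 among them, 3 rose and 3 fell (75% past the threshold, against 62.5% of all tested genes, 31.9% higher and 30.6% lower). Their median log2 fold change was -0.00134, and Dppa3 was among those that rose. Dnmt3l, the cofactor of the de novo enzymes, was not knocked out and had 45.2, 46.5 and 49.2 TPM in TKO-2i and 486, 506 and 504 TPM in TKO-serum, the lowest serum value far above the highest 2i value (log2 fold change -3.31, standard error 0.0723, edgeR, adjusted p = 1.75e-08). Dnmt3a and Dnmt3b fell by log2 fold changes of -2.04 and -1.11 (standard errors 0.0592 and 0.0543, edgeR, adjusted p = 6.31e-08 and 7.13e-07). Dnmt1 rose by 0.24 (standard error 0.0477, edgeR, adjusted p = 0.00215). Uhrf1, which brings Dnmt1 to replicated DNA, had 316, 344 and 314 against 172, 185 and 179 TPM and rose (0.97, standard error 0.0501, edgeR, adjusted p = 9.6e-07).

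Of 13 readers of 5mC and 5hmC, 4 rose and 3 fell (53.8% past the threshold, against 62.5% of all tested genes, 31.9% higher and 30.6% lower), with a median log2 fold change of 0.14. Wdr76 rose by 0.69 (standard error 0.0786, edgeR, adjusted p = 9.17e-05). Uhrf2, which binds 5hmC, had 15.4, 21.5 and 16.9 against 22.9, 27.1 and 25.1 TPM and fell (-0.49, standard error 0.0524, edgeR, adjusted p = 6.27e-05). Mbd3, the most abundant of them per length at 129 to 131 TPM in TKO-2i and 156 to 160.3 TPM in TKO-serum, did not pass on the count scale (-0.15, edgeR, adjusted p = 0.174). Of 4 cytidine deaminases 2 rose and 0 fell (50% past the threshold, against the same 62.5%, 31.9% and 30.6%), with a median of 0.23. These were Apobec2 (0.66, standard error 0.13, edgeR, adjusted p = 0.00197) and Apobec1 (0.52, standard error 0.0698, edgeR, adjusted p = 0.000231), the latter on chromosome 6, and the most abundant, Apobec3, did not pass (-0.06, edgeR, adjusted p = 0.346).

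The genes whose pattern over the 6 libraries was most like that of each gene were found by the root mean square difference of log2 CPM, centred on each gene's mean, among 9066 protein-coding genes that averaged 10 CPM or more. For Tet1 these were Kmt2c (0.0237), Kdm7a (0.0295) and Lpp (0.0481), where the median over all genes was 0.393. Kmt2c had 63.9, 107 and 74.1 CPM in TKO-2i and 97.0, 113 and 107 CPM in TKO-serum, the same high TKO-2i replicate 2 as Tet1. For Tet2 they were Lrba (0.0378), D630045J12Rik (0.0442) and Map3k2 (0.045; median 0.278), and for Tet3 Arhgef12 (0.0373), Ep400 (0.0398) and Usp24 (0.0398; median 0.239). All 6 of these had their highest CPM in TKO-2i replicate 2. For Tdg they were Edc3 (0.00743), Gle1 (0.0149) and Myl12a (0.0181; median 0.237), with their lowest CPM in TKO-2i replicate 2. Such shared highs and lows follow from the choice by pattern and are no separate result. For Mbd4 they were Copg2 (0.016), Tmtc4 (0.0266) and Xlr3b (0.0381; median 0.351). Of all these genes, Copg2 is on chromosome 6 like Mbd4, and Lrba on chromosome 3 like Tet2. Kdm7a and D630045J12Rik, listed for Tet1 and Tet2, are on chromosome 6 too. Copg2 had 95.9, 99.1 and 95.5 CPM in TKO-2i and 53.2, 59.6 and 59.5 CPM in TKO-serum.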

How the data were processed

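Poly(A)-selected RNA of 3 TKO-2i and 3 TKO-serum samples was compared, grouped by the labels. The deposited files give, per transcript, an estimated count that the authors derived from the reads. The deposited TPM values had been scaled by the authors for effective length, and each library to the same total. The submitters' processing notes name mm10; the quantifier, its version and its strand setting were not given in the sources used here, and the methods of the study describe other steps. From 85.1 to 85.8% of the counts above 0 were not whole. Transcript identifiers were matched to GENCODE M21 (GRCm38), 136100 of 136288 (99.86%), and the unmatched held 0.0473 to 0.0643% of counts and stayed out.

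Estimated counts were summed per gene or kept per transcript and rounded to whole numbers. Tests used edgeR 4.0.16 in R 4.3.3 (filterByExpr, TMM, quasi-likelihood, Benjamini-Hochberg over all features tested, threshold 0.05) and diffSpliceDGE for changes within a gene. CPM are TMM-normalised, and standard errors are the log2 fold change over the square root of F. P-values measure the spread between these samples, which may be technical, as nothing says whether cultures were independent beyond the word biological. Shares of Tet TPM were compared with an exact permutation test (SciPy 1.17.1, Python 3.11.15). Replicate pairs differed beyond sampling noise (chi-square per gene 4.69 to 45). Copies were searched with BLAST 2.17.0 (at least 90% identity over 200 bases). Scripts were tested on simulated data. There the gene test recovered 76 of 98 changes of 2-fold and 94 of 102 of 4-fold, with 13 false calls. The transcript test recovered only 12 of 87 and 39 of 113, with 7 false calls. A transcript that did not pass may thus still have changed. With 38274042 to 51932739 counts per library, 3 counts equal 0.0578 to 0.0784 CPM.

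Named were the 5 genes, 15 genes fixed by name, and from each of 7 pathway lists up to 3 of the largest changes past the threshold at a mean CPM of at least 1 and the gene with the highest TPM. For the 6 marker lists the text names the most abundant gene, fibroblast and endoderm genes at 0 in single libraries, and Pdgfrb. Pdgfrb, Gadd45a, Gadd45b, Slc23a2, Dppa3 and Trdmt1 were chosen after their values were seen. Transcripts were named from a mean TPM of 1 or 5% of their gene. Members and lists were chosen with earlier results of these data known. Alternatives were DESeq2 1.42.0, its size factors in edgeR, TMM without chromosomes 6 and 11, no count filter, limma 3.58.1 on log2 TPM with 1 or 0.1 added, a minimum of 10 counts per sample, length-scaled TPM as counts, a replicate block, each sample left out, Tet shares of counts, and, added after seeing the data, offsets for transcript length, Tdg with its copies, and the usage test of Tet1-201 with the block and each sample left out.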

Additional observations from a re-analysis of the deposited data

How the results depend on the processing

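Tdg and Mbd4 kept their direction and stayed past the threshold in all 17 and 16 alternatives run (log2 fold change -0.34 to -0.22 and 0.62 to 0.80). Tet1, not past the threshold in the reported fit, kept its direction in 16 and passed in 7: DESeq2 (-0.42, adjusted p = 0.0137), no count filter (-0.42, edgeR adjusted p = 0.0104), counts from length-scaled TPM (-0.47, edgeR adjusted p = 0.014), limma on log2(TPM + 1) (-0.58, adjusted p = 0.0422), the replicate block (-0.43, edgeR adjusted p = 0.00165), without TKO-2i replicate 2 (-0.64), and offsets for transcript length, chosen after seeing the data (-0.37, edgeR adjusted p = 0.00444). Tet2 lost its call in 3 of 16, with limma on log2(TPM + 1) (0.35) and log2(TPM + 0.1) (0.36) and without TKO-serum replicate 1 (0.40). Tet3 lost it in 5 of 16, with length-scaled TPM (0.27), limma on log2(TPM + 1) (0.12) and log2(TPM + 0.1) (0.15), and without TKO-serum replicate 1 (0.34) or 3 (0.31). The cause was not tested. With each sample left out, the log2 fold changes ran from -0.64 to -0.26 for Tet1, 0.25 to 0.50 for Tet2, 0.21 to 0.41 for Tet3, -0.30 to -0.22 for Tdg and 0.71 to 0.79 for Mbd4. Genes past the threshold ran from 10152 to 12568, transcripts from 7683 to 11375, the Tet1-201 usage change from 0.42 to 0.55, and the shares of Tet1, Tet2 and Tet3 from -13.1 to -12.3, 11.5 to 12.4 and 0.743 to 0.841 percentage points. Only Tet1-208 and Mbd4-204, neither past the threshold, changed sign: Tet1-208 was at 0.0046 without TKO-serum replicate 1 (range -0.59 to 0.0046), and Mbd4-204 at -0.046 without TKO-2i replicate 3 and -0.0019 without TKO-serum replicate 3 (range -0.046 to 0.19). From counts instead of TPM the shares differed by -11.0, 9.79 and 1.19 points. No scaling moved the median of all genes by over 0.1; the largest shift was -0.0969. The split of all genes past the threshold, 5804 higher and 5557 lower, did move, to 4160 and 5684 with limma on log2(TPM + 1), 3955 and 5562 on log2(TPM + 0.1), and 5206 and 6818 with the length offsets. Whether the replicate numbers pair the samples was not given, and the reported fit did not treat them as pairs. Same-numbered samples deviated from their condition means with correlations of 0.38, 0.498 and 0.0638, which do not settle this. The replicate block gave 12539 genes and 9606 transcripts past the threshold against 11361 and 11399 in the reported fit. Among the 5 genes it changed only the call on Tet1, and of their named transcripts Tet1-206 (-0.67, edgeR, adjusted p = 0.0308) and Tet2-209 (0.69, edgeR, adjusted p = 0.047) came past the threshold with it. With 10 counts required in every sample, Tet1-206 (-0.65), Tet1-207 (-0.93) and Mbd4-202 (0.60) came past the threshold (edgeR, adjusted p = 0.0244, 0.0484 and 0.0486). Several named transcripts rest on few counts per library, such as Tet1-210 with 4.3 to 18.4 and Tet1-207 with 15.9 to 53.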

Other observations

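All values come from 1 line in 3 samples per condition, so they describe these cultures, and the conditions differ in serum, inhibitors and LIF dose at once. RNA levels say nothing of protein or of enzyme activity, and oxidised bases were not measured in these libraries. TKO cells lack the methyltransferases that make the substrate of Tet, and without wild type libraries here no comparison with methylated cells was made. The values of Tet1, Tet2 and Tet3 moved most, of the samples left out in turn, without TKO-2i replicate 2. Reads from stretches that Tdg shares with its copies cannot be placed. The log2 fold change was -0.25 for Tdg and for their sum. Tdg held 49.9 to 52.4% of that sum in every library, so the sum is no separate check of Tdg. How reads antisense to Mbd4 were counted was not given.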
